A study of Oryctolagus cuniculus with 36 samples.

Results

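Livers labelled FA and FK were compared by whether they carried the RNA of blood-forming cells. The data were RNA-seq counts from rabbit liver in a series on gene correction of hereditary tyrosinemia type I, the loss of the tyrosine-degrading enzyme FAH. Sample titles place 36 libraries in 3 groups, WT, FA and FK, each with 3 numbered sets of 4 libraries. All 36 carry the same disease description, and the titles do not spell out FA or FK, so neither name is read here as a genotype or a treatment. The labels used here state no age, strain, sex, allele or agent, and do not say that sets, or the libraries in a set, came from separate animals. The 4 libraries of a set were therefore summed, which left 9 sets. The protocol, the same for all 36, speaks of treated rabbits and of liver digested with trypsin before the RNA was taken with TRIzol.

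The 2 classes were chosen by 1 measured value, the level of TAL1 in the 6 FA and FK sets. Sets with at least 10 CPM (counts per M counts of the set) were called TAL1-high, and sets under 5 CPM TAL1-low. This placed FK sets 1 and 2 in the first class and FA sets 1, 2 and 3 with FK set 3 in the other, 2 and 4 of the 9 sets. Since a readout chose the classes, every difference between them is a description, with no test. The 12 WT libraries, in 3 sets, had no part in the choice and are shown for reference. Below, values of the TAL1-low sets are given in the order FA set 1, FA set 2, FA set 3, FK set 3, those of the TAL1-high sets in the order FK set 1, FK set 2, and those of WT by set number.

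Before birth the liver is a main site of blood formation. Erythroblasts, megakaryocytes and granulocyte precursors mature there among hepatocytes that make fetal proteins such as alpha-fetoprotein and hold little of the drug-metabolizing and bile-acid-forming machinery of the adult organ. Around and after birth blood formation moves to the bone marrow, and blood formation outside the marrow can also return to the liver of adults under stress. TAL1 is a transcription factor that all blood lineages need. NFE2 acts in red cell and platelet formation, KIT is the receptor for stem cell factor on progenitors and mast cells, and MYB is a transcription factor of immature blood cells.

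All 4 of these marker genes were high in the same 2 sets. TAL1, which made the choice, stood at 37.7 and 117 CPM in FK sets 1 and 2 and at 1.08, 1.18, 1.04 and 0.936 in the TAL1-low sets, with 1.77, 1.498 and 1.86 in WT. Of the 6 FA and FK sets none lay between 1.18 and 37.7 CPM. NFE2 was at 37.1 and 88.4 CPM against 0.522, 1.15, 0.320 and 0.307, and KIT at 8.18 and 12.3 against 1.16, 0.604, 0.705 and 0.307. MYB was at 7.48 and 7.32 CPM against 0.127, 0.0318, 0.0641 and 0.0969. WT held 0.631 to 1.56 CPM of NFE2, 0.426 to 0.672 of KIT and 0.0656 to 0.252 of MYB. For each gene the 8 libraries of the TAL1-high sets lay above all other 28 libraries, as the plot of the markers by set shows. FAH, the gene of the disease, did not follow the division. It was at 17.5 and 14.7 CPM in the TAL1-high sets, 23.4, 24.2, 18.8 and 13.9 in the TAL1-low sets and 243, 265 and 199 in WT, so that all 6 FA and FK sets were low in FAH.

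**Figure D1:**
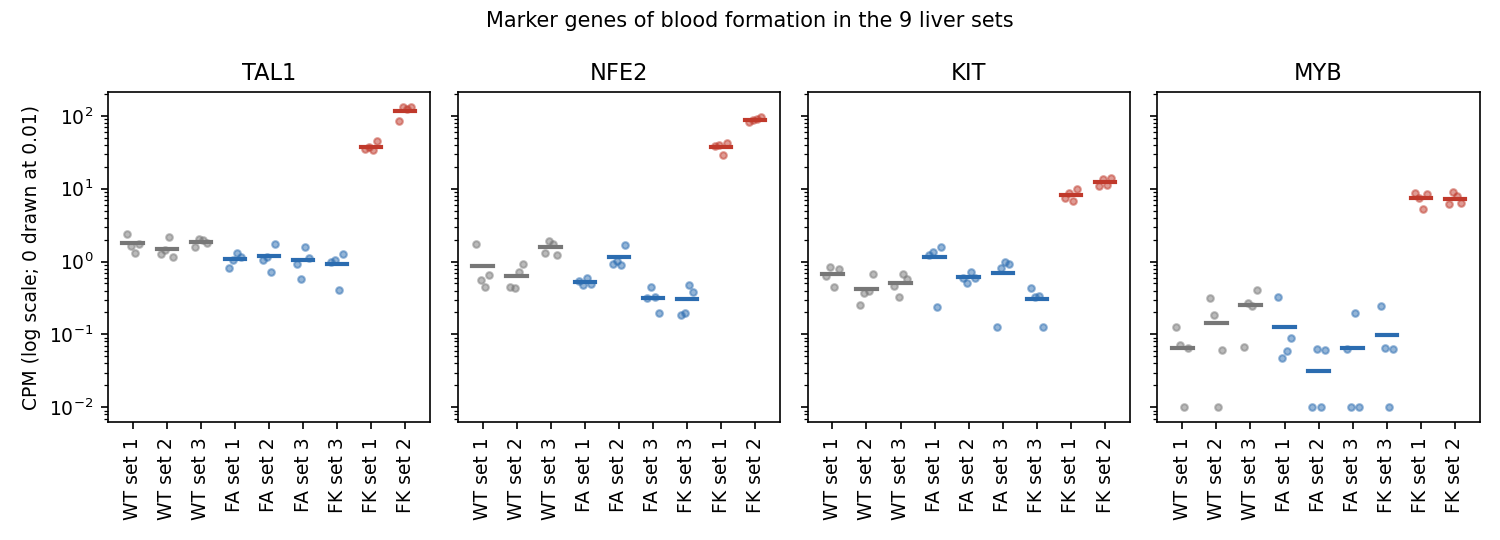
CPM (log axis) of TAL1, NFE2, KIT and MYB in the 9 liver sets. Points are the 4 libraries of a set, bars the set, gray is WT, blue the TAL1-low and red the TAL1-high sets; FK sets 1 and 2 lie above every other set for all 4 genes.

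Set totals ran from 53.2 to 78.6 M counts. The 2 TAL1-high sets were the 2 shallowest, at 58.4 and 53.2 M against 61.0 to 78.6 M elsewhere. Albumin took 15.6% and 10.6% of their counts, against 15.3% to 21.2% in the TAL1-low sets and 16.3% to 21.0% in WT. Across genes, which are not independent replicates, log CPM of FK sets 1 and 2 correlated at r = 0.955 with each other and at 0.770 to 0.821 with the 7 other sets. FK set 3 correlated at 0.963 to 0.972 with the FA sets.

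A gene was said to stand apart when both TAL1-high sets lay on the same side of all 4 TAL1-low sets and the means differed at least 2-fold. Of 12682 genes with at least 1 CPM in 2 of the 6 sets, 2689 (21.2%) stood apart and higher in the TAL1-high sets and 1228 (9.68%) apart and lower. These shares are the background for every count on CPM below, and the rule used this contrast, so nothing is read from a count alone. Of the 2689 genes, 651 passed the filter only through the sets where they were high. Without FK set 2 the count of higher genes was 1759. The WT mean lay nearer to the TAL1-low mean for 91.3% of the higher and 86.9% of the lower genes.

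The direction of calls depended on the scale. On CPM, 68.6% of the genes apart were higher, and the median log2 ratio (TAL1-high over TAL1-low, with 0.5 CPM added) of all genes was 0.27. With TMM factors, which were 1.08 and 1.23 in FK sets 1 and 2 and 0.905 to 1.02 in the others, 53.6% were higher and the median was 0.00, and with RLE factors 52.9% and -0.01. Scaled to 11 plasma protein genes taken as a hepatocyte reference, 38.5% were higher and the median was -0.25. That reference list is itself uneven, since it holds APOA1 at 2909 and 3181 CPM against 56.3, 113, 60.0 and 71.5 and TTR at 898 and 1409 against 6521, 3463, 4477 and 3147. List medians below are on CPM and are to be read against 0.27. Counts on another scale have another background. With TMM factors 1952 of 12626 genes were apart and higher and 1689 lower, and with RLE factors 1933 and 1724 of 12628. On the hepatocyte scale 1493 of 12487 genes were apart and higher and 2383 lower.

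The test that the labels allow, FK against FA, found no gene in either direction. By edgeR's quasi-likelihood test with p-values adjusted by Benjamini-Hochberg, 0 of 14939 genes (0%) were called higher and 0 (0%) lower, with 3275 genes at an unadjusted p under 0.05 and a smallest adjusted p = 0.115. DESeq2 called 1778, and edgeR without FK set 3 called 5324. Without FK set 3 only the TAL1-high sets are left in FK, so the 5324 describe classes chosen by a readout and are no test. FK holds both kinds of set, and no difference between TAL1-high and TAL1-low sets has support from this test.

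Genes of early blood-forming cells were higher in the TAL1-high sets. Of 19 list genes in the table, 17 passed the filter, 7 of them only through the high sets, and 15 stood apart and higher and none lower. Besides the 4 markers, the list includes GATA1, which drives red cell and platelet genes, GFI1B, its partner in the same lineages, and GATA2, a factor of stem cells, progenitors and mast cells. GATA1 was at 8.15 and 32.3 CPM against 0, 0.0477, 0.0160 and 0.0161, with 0.0656, 0.0158 and 0.178 in WT. GFI1B was at 6.40 and 13.9 CPM against 0.0382, 0.0318, 0.0320 and 0.0161. Both were nearly absent outside the TAL1-high sets, while GATA2 had a level there too, at 1.11 to 2.18 CPM against 11.3 and 15.7. The stem cell gene CD34 was at 5.44 and 6.08 CPM against 0.382 to 0.817, and FLT3, the receptor of lymphoid and myeloid progenitors, at 7.19 and 5.51 against 0.307 to 0.738. LMO2 and HHEX, which endothelium and hepatocytes also express, overlapped between the classes. In bulk tissue, more cells of a type and more RNA per cell cannot be told apart, here and in every list that follows.

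Red cell genes had the highest median of the 45 lists. The 31 erythroid list genes in the table summed to 8839.5 and 23003 CPM in the TAL1-high sets, 955, 1232, 626 and 879 in the TAL1-low sets and 982, 1144 and 2559.99 in WT. Of 28 that passed the filter, 14 only through the high sets, 26 stood apart and higher and none lower on CPM. The list median was 5.52. SLC4A1, the band 3 anion exchanger of the red cell membrane, was at 196 and 897 CPM against 0.153, 0.0477, 0.0641 and 0.0807. Its WT values were 0.131, 0.158 and 2.20, so WT set 3 stood above the other 6 sets that were not TAL1-high. The membrane skeleton genes ANK1, SPTB, EPB42 and DMTN shared the pattern, and SPTB was at 39.9 and 220.5 CPM against 0.522, 0.525, 0.769 and 0.614. ANK1 reached 46.8 and 208 CPM, with 3 counts in all over the 4 TAL1-low sets. AHSP, the chaperone of free alpha-globin, was at 65.0 and 233 CPM against 0.115, 0.143, 0 and 0.113, and HEMGN, a nuclear protein of erythroblasts, at 67.1 and 202 against 0.306, 0.382, 0.0801 and 0.113.

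The beta-globin gene HBB2 was at 6611 and 17735 CPM in the TAL1-high sets, 572, 651, 254 and 454 in the TAL1-low sets and 623, 793 and 2158 in WT. The TAL1-high sets lay above all others, and WT set 3 came next. Circulating red cells in the tissue can also carry globin RNA. The embryonic globin HBZ was at 0.274 and 0.301 CPM in the TAL1-high sets and 0 to 0.0161 in the TAL1-low sets, and the fetal symbol HBG2 had 0 counts in all 9 sets. A count of 0 allows up to 0.0382 to 0.0564 CPM by set (3 counts, counting error only). KLF1, the factor that switches on adult globin, was at 6.66 and 30.8 CPM against 0.471, 0.0636, 0.368 and 0.210, and EPOR, the erythropoietin receptor, at 16.6 and 58.8 against 2.27, 1.51, 1.35 and 1.18. CA2, a carbonic anhydrase, stood at like levels in both TAL1-high sets, at 634 and 624 CPM against 7.41, 18.5, 8.76 and 15.9. STEAP3, a ferric reductase that hepatocytes also express, went against the list, at 46.5 and 43.3 CPM against 83.8, 105, 69.6 and 81.7, which was not apart by the 2-fold rule on CPM but was with TMM factors. The transferrin receptor TFRC was not apart either, at 202 and 399.7 CPM against 119, 238, 104 and 136. All 6 FA and FK sets lay above WT (25.1, 18.6 and 25.7) for TFRC, and it rose in FA against WT by 2.76 on the log2 scale (SE 0.34, edgeR adjusted p = 0.0105).

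Heme synthesis genes went both ways. ALAS2, the erythroid form of the first enzyme, was at 192 and 456 CPM against 13.6, 19.04, 4.97 and 11.8, and FECH, which inserts the iron, at 51.6 and 169.6 against 9.98, 11.4, 8.49 and 10.6. PPOX was also apart and higher. ALAD and CPOX were apart and lower, ALAD at 35.8 and 87.9 CPM against 273, 192, 224 and 159. ALAS1, the first enzyme's housekeeping form in liver, was at 187 and 49.8 CPM against 185, 330.2, 587 and 485 and overlapped. ERFE, the hormone by which erythroblasts lower hepcidin, was at 0.753 and 10.5 CPM against 0.127, 0.111, 0.208 and 0.210, and hepcidin itself (HAMP) overlapped, at 158 and 288 against 164, 94.6, 174 and 131.

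Platelet-forming and granulocyte genes were higher as well, in unlike proportions in the 2 sets. Of 14 megakaryocyte genes, 6 of which passed only through the high sets, 13 were apart and higher. PPBP, a platelet chemokine, was at 34.8 and 27.0 CPM against 0, 0.0636, 0.0801 and 0.484, ITGA2B, the platelet fibrinogen receptor chain, at 26.3 and 29.0 against 0.853, 1.37, 0.801 and 0.630, and TUBB1, the tubulin of platelets, at 25.9 and 27.4 against 3.96, 2.82, 1.87 and 2.34. These 3 were nearly level between FK sets 1 and 2. RAB27B was above all TAL1-low sets but by less than 2-fold, at 1.56 and 1.81 CPM against 0.764, 0.525, 0.865 and 1.29.

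Of 20 neutrophil genes, 7 through the high sets alone, 19 were apart and higher. LCN2, which binds bacterial siderophores, was at 120.2 and 545 CPM against 2.90, 0.922, 0.0801 and 0.242, the antimicrobial peptide gene CAMP at 137 and 620.3 against 3.91, 2.34, 1.47 and 1.78, and BPI, which binds endotoxin, at 199 and 366 against 1.48, 2.42, 0.465 and 2.18. S100A9 and S100A8, the calprotectin subunits, were at 618 and 1054 and 302 and 490 CPM, against 5.83 to 12.9 and 3.37 to 8.30. MPO, the peroxidase made by promyelocytes, was at 8.83 and 22.9 CPM against 0.153, 0.0159, 0 and 0.0161. LYZ, identified by its RefSeq symbol, was the exception, at 283 and 0.113 CPM against 42.8, 36.4, 31.9 and 88.3 with 26.9, 0.426 and 38.7 in WT. It thus varied widely within both the TAL1-high and the WT sets, and estimated counts may divide its reads with a similar gene.

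The eosinophil granule genes PRG2, PRG3 and EPX were higher in FK set 1 than in FK set 2. PRG2 was at 37.8 and 13.4 CPM against 0.242, 0, 0 and 0, PRG3 at 23.9 and 10.1 against 0.0127, 0, 0 and 0.0323 and EPX at 8.47 and 4.14 against 0.102, 0.0159, 0 and 0.0323. MS4A2, the Fc-epsilon receptor chain of mast cells and basophils, was at 8.85 and 4.68 CPM against 0.547, 0.207, 0.625 and 0.274, and HDC, which makes histamine, at 7.84 and 5.31 against 0.229, 0.175, 0.160 and 0.145. The mast cell protease CPA3 had 0 counts in all 9 sets, and the eosinophil receptor chain IL5RA was at 0.0856 and 0.0564 CPM against 0.0127, 0.0795, 0.0481 and 0.0646. All 7 members that passed the filter were apart and higher, 6 of them through the high sets alone.

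Cell division genes were higher in the TAL1-high sets. Of 26 mitosis genes, 24 stood apart and higher and none lower (median 4.45), 12 passing through the high sets alone. Of 25 DNA replication genes, 21 stood apart and higher (median 2.59), and 6 had passed through the high sets alone. MKI67, the Ki-67 antigen of dividing cells, was at 129.9 and 336 CPM against 2.94, 2.48, 3.81 and 2.84, with 4.47, 4.82 and 5.61 in WT. ASPM, which focuses the spindle poles, was at 38.0 and 67.6 CPM against 0.649, 0.636, 0.993 and 0.936, and CENPF, a kinetochore protein, at 48.3 and 81.1 against 1.57, 0.795, 1.35 and 1.31. RRM2, the ribonucleotide reductase subunit of S phase, was at 32.7 and 164 CPM against 1.34, 0.986, 1.14 and 1.13, and MCM5, part of the replicative helicase, at 15.9 and 40.4 against 3.68, 3.18, 1.94 and 1.29. AURKA and PRC1 overlapped between the classes, and AURKA was at 71.2, 78.2 and 26.3 CPM in WT against 20.4 and 41.5 in the TAL1-high sets, highest in WT sets 1 and 2. Red cell genes were high in the same 2 sets, and the part of blood precursors in the division genes was not tested.

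Genes of glucose use in dividing cells were higher as well. Of 17 glycolysis genes, 14 were apart and higher and none lower, but 9 with TMM factors and 7 on the hepatocyte scale. HK2, a hexokinase that adult hepatocytes lack, was at 9.997 and 9.90 CPM against 0.191, 0.350, 0.272 and 0.323, HK1, the form of red cells among others, at 37.9 and 84.3 against 6.12, 7.49, 4.999 and 8.53, and PKM, the pyruvate kinase outside liver and red cells, at 43.0 and 46.2 against 7.94, 10.3, 5.38 and 8.32. PKLR, the liver and red cell form, was not in the list. It was at 6.74 and 65.6 CPM in FK sets 1 and 2, 41.3 to 92.1 in the TAL1-low sets and 59.1 to 76.1 in WT, and was chosen after its values were seen.

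Of 18 genes of the integrated stress response and serine pathway, 10 were apart and higher, 5 through the high sets alone. The largest ratios were those of SLC7A5, a carrier of large neutral amino acids, at 18.5 and 82.5 CPM against 0.356, 0.588, 0.385 and 0.355, and ASNS, asparagine synthetase, at 16.9 and 75.9 against 0.509, 0.557, 0.208 and 0.242. The mitochondrial folate enzymes followed, MTHFD2 at 56.4 and 129 CPM against 1.34, 1.53, 1.44 and 1.52 and ALDH1L2 at 37.0 and 36.4 against 0.407, 0.795, 0.593 and 0.743. PHGDH, PSAT1, PSPH and SHMT2, which make serine and glycine, all overlapped between the classes. NUPR1 overlapped in the other direction, at 55.0 and 29.7 CPM against 77.7, 102, 44.7 and 56.5, and it rose in FA against WT by 2.43 log2 units (SE 0.35, edgeR adjusted p = 0.0189).

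**Figure D2:**
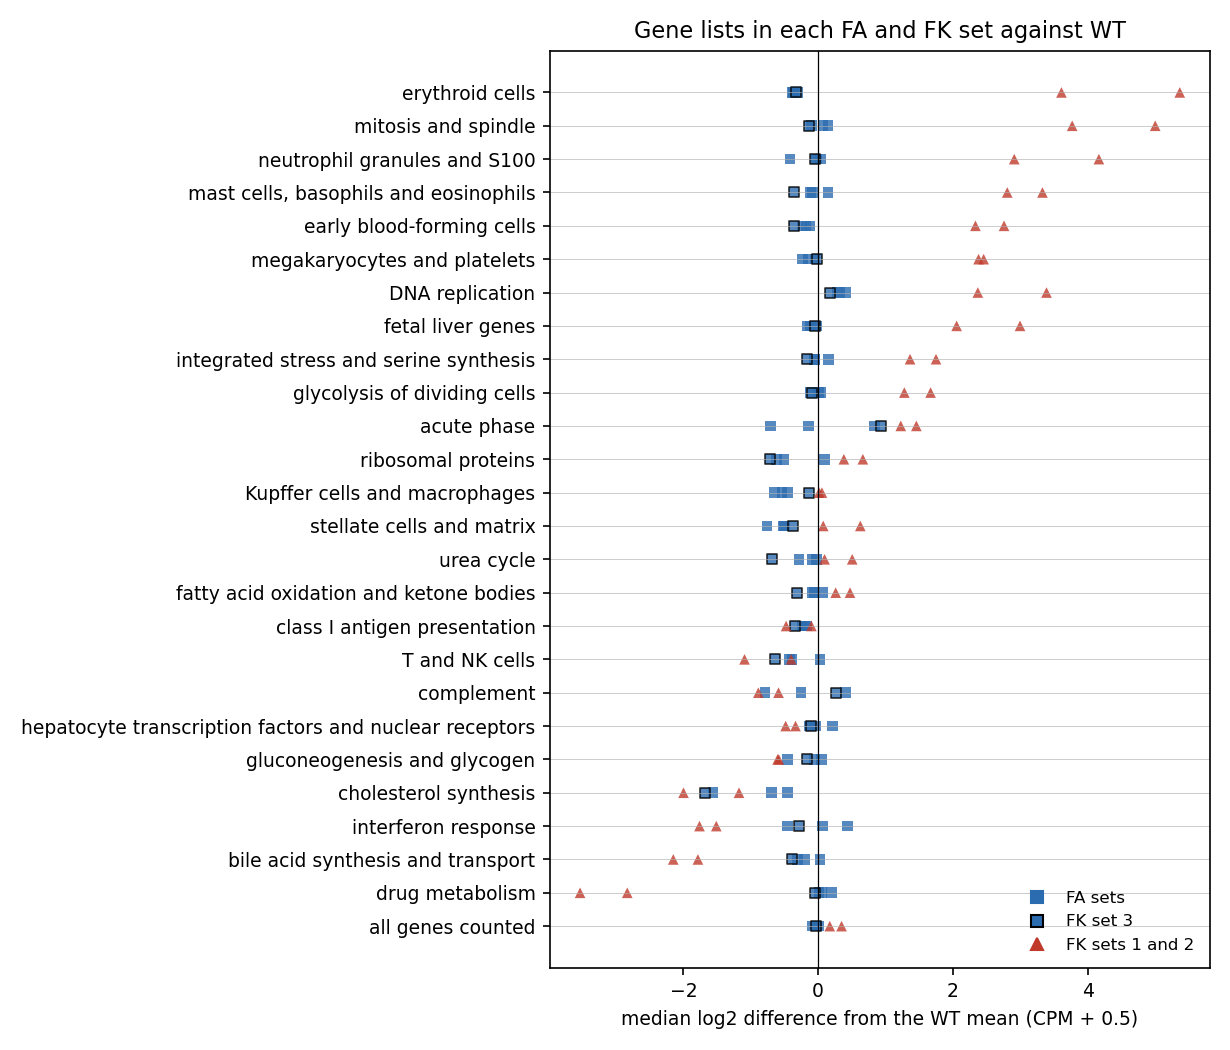
Median log2 difference from the WT mean (CPM with 0.5 added) of each gene list in the 6 FA and FK sets. Squares are the FA sets and, outlined, FK set 3, and triangles are FK sets 1 and 2; for the erythroid list the triangles lie at 3.61 and 5.37 and the squares between -0.38 and -0.30.

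Drug metabolism genes were the list with the lowest median. The 29 genes summed to 2031 and 2828 CPM in FK sets 1 and 2, against 34958, 28128, 42397 and 33490.3 in the TAL1-low sets and 29431, 30446 and 35723 in WT. All 29 passed the filter, 24 were apart and lower and none was higher, a count of 24 on the TMM, RLE and hepatocyte scales too. The list median was -3.33 on CPM and -3.91 on the hepatocyte scale. The cytochrome P450 gene CYP2C5 was at 0.479 and 0.263 CPM against 1171, 517, 2927 and 1991, with 807, 1030.4 and 849.7 in WT. CYP2C14 was at 0.702 and 0.301 CPM against 459, 596, 508 and 729.98, and CYP2C4 at 8.88 and 10.1 against 4761, 3142, 5148 and 3835. The mean was 4447, 1143 and 445 times as high in the TAL1-low sets for CYP2C5, CYP2C14 and CYP2C4. Estimated counts can divide the reads of such similar genes, so the level of a single CYP2C gene is less certain than that of the family.

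The conjugating and hydrolyzing enzymes were low too. UGT2B16, a glucuronosyltransferase, was at 0.616 and 1.09 CPM against 881, 513, 1066 and 833. CES1, the main liver carboxylesterase, was at 65.9 and 201 CPM against 7439, 6184, 7067 and 5136, and EPHX1, microsomal epoxide hydrolase, at 69.2 and 137 against 3164, 2496, 2756 and 2331. CYP3A6, of a main drug-metabolizing subfamily, was at 416 and 194 CPM against 1132, 1086, 2539 and 4716. CYP3A6 in WT ran from 3180.3 to 13399 CPM. POR, the reductase that supplies these enzymes with electrons, overlapped, at 331 and 452 CPM against 253, 473, 313 and 294. CES3, CYP4A5, FMO2 and NAT1 overlapped as well. CYP4B1 was apart and lower, at 49.9 and 104 CPM against 222, 321, 345 and 413. Between FA and WT, CYP4B1 rose by 1.54 (SE 0.21, edgeR adjusted p = 0.0161) and CYP2C16 fell by 2.65 on the log2 scale (SE of 0.41, adjusted p = 0.0236).

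Plasma protein genes did not show such a difference in sum. Albumin was 156387 and 105521 CPM in the TAL1-high sets and 152945 to 211857 in the TAL1-low sets, and the 21 plasma protein genes together made 249415 and 203882 CPM against 239602 to 279755. The summed drug metabolism genes were 0.0699 of the TAL1-low mean, and the summed plasma proteins 0.897. Albumin made up most of the plasma protein sum. The median of that list was -0.25, with 5 members apart and higher and 5 lower. The erythroid sum was higher in the same 2 sets (8839.5 and 23003 CPM against 626 to 1232), and its part in the levels of liver genes was not tested.

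**Figure D3:**
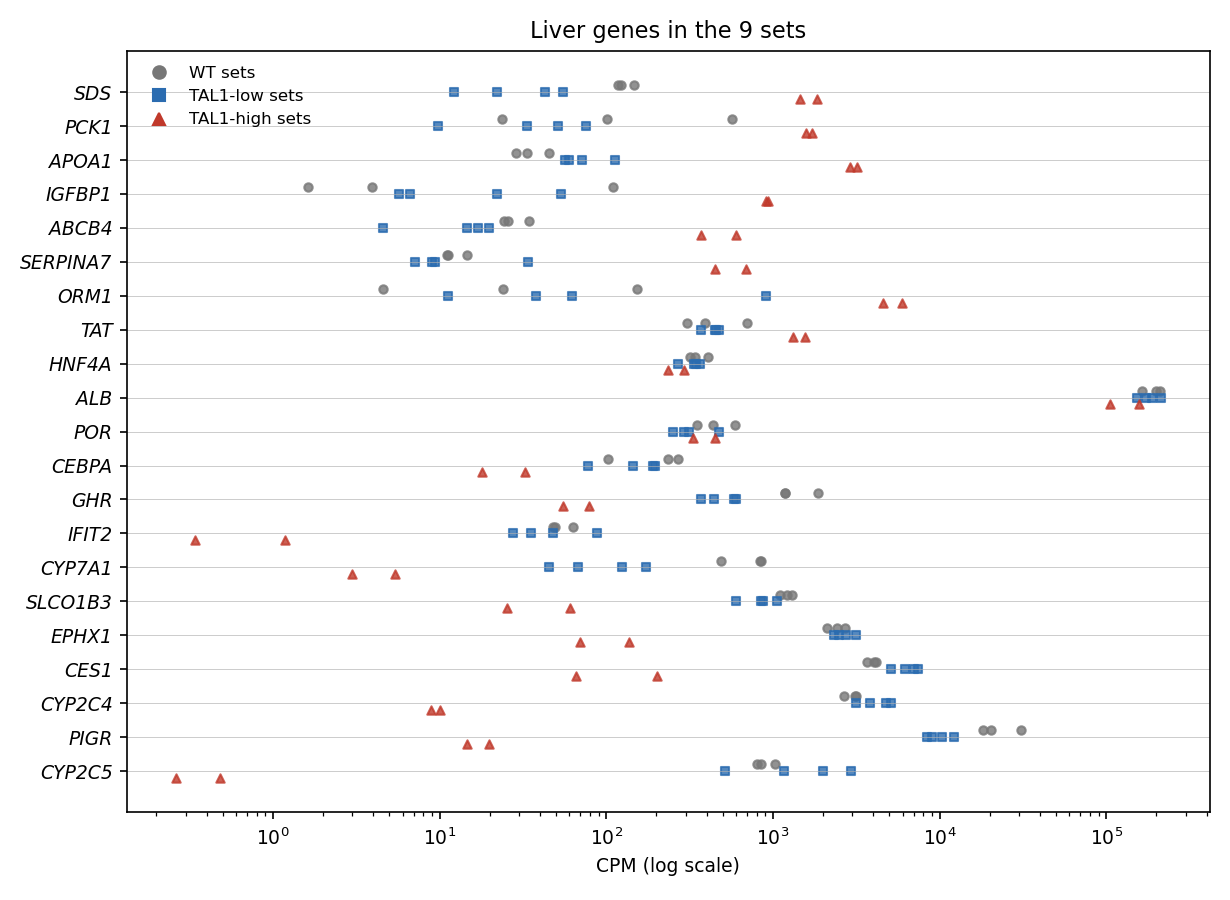
CPM (log axis) of 21 liver genes in the 9 sets, gray circles for WT, blue squares for the TAL1-low and red triangles for the TAL1-high sets. CYP2C5, PIGR and CYP2C4 lie far lower in FK sets 1 and 2 than in the TAL1-low sets, SDS and PCK1 lie higher, and HNF4A and ALB lie close together.

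Bile acid genes showed the same direction. Of 20 that passed the filter, 15 were apart and lower and 1 was higher (median -1.76). CYP7A1, which sets the rate of bile acid formation, was at 2.98 and 5.40 CPM against 125, 68.0, 173 and 45.4 and 848, 838 and 489 in WT. The TAL1-low sets were themselves below WT, and CYP7A1 fell in FA against WT by 2.51 on the log2 scale (SE 0.38, edgeR adjusted p = 0.0234). CYP7B1, of the alternative pathway, was at 42.0 and 43.4 CPM against 741, 658, 935 and 1032. The uptake carrier SLCO1B3 was at 60.4 and 25.5 CPM against 873, 598, 1052 and 851, and the bile salt export pump ABCB11 at 61.5 and 18.6 against 507, 326, 480.3 and 326. AKR1D1, a reductase that shapes the bile acid nucleus, was at 62.8 and 35.7 CPM against 398, 271, 407 and 293. ABCB4, the phospholipid exporter that protects the bile ducts from bile salts, went the other way, at 371 and 598 CPM against 14.5, 17.0, 4.57 and 19.9 and 25.8, 34.5 and 24.4 in WT. The uptake carrier SLC10A1 and the exporter ABCC2 were below all TAL1-low sets by less than 2-fold.

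Among hepatocyte transcription factors, part of the list was lower. Of 22, 8 were apart and lower and 1 higher, and on the hepatocyte scale 11 were lower and none higher. CEBPA, a factor of mature hepatocytes and of granulocytes, was at 18.1 and 32.7 CPM against 191, 195, 146 and 78.2. NR1I3, the xenobiotic receptor CAR, was at 16.7 and 37.0 CPM against 109.7, 74.4, 98.3 and 72.5, and NR1I2, the receptor PXR, at 14.9 and 26.9 against 43.7, 43.4, 45.3 and 45.8. The clock-controlled factor TEF was at 14.2 and 20.8 CPM against 75.6, 90.4, 68.0 and 57.9, ONECUT2 at 84.1 and 42.5 against 203, 223, 235 and 292, and FOXA1 at 7.02 and 5.47 against 9.75, 20.7, 17.6 and 23.1. HNF4A was at 234 and 295 CPM against 269, 366, 346 and 335, and FOXA2 and NR5A2 were above all TAL1-low sets by less than 2-fold. PPARGC1A, the coactivator of the fasting response, was the member apart and higher, at 40.0 and 36.0 CPM against 17.2, 16.8, 17.8 and 22.48, but not with TMM factors, where the higher count was 0.

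Genes typical of fetal liver were higher. Of 12 that passed the filter, 6 through the high sets alone, 10 were apart and higher and none lower. AFP, alpha-fetoprotein, was at 933 and 2966 CPM against 882, 67.5, 497 and 218, so FK set 1 lay only slightly above FA set 1, and WT was at 1.02, 4.00 and 2.27. GPC3, a growth-regulating proteoglycan of fetal liver, was at 171 and 257 CPM against 48.8, 32.1, 43.7 and 64.6. Both rose in FA against WT, AFP by 7.69 (SE 1.10, edgeR adjusted p = 0.0178) and GPC3 by 4.15 (SE 0.28, adjusted p = 0.00132). The oncofetal RNA-binding proteins were low in FA and WT alike. IGF2BP3 was at 11.69 and 21.4 CPM against 0.318, 0.525, 0.449 and 0.597, and IGF2BP1 at 5.58 and 7.22 against 0.598, 0.159, 0.352 and 0.0646. PLAG1, a factor of fetal growth, was at 8.23 and 8.09 CPM against 0.611, 0.191, 0.176 and 0.371. LIN28B, which blocks the let-7 microRNAs in fetal tissue, was at 0.120 and 0.771 CPM, with 0 counts in each TAL1-low and WT set. SOX4 and PEG3 overlapped, and DLK1, at 0.993 and 5.34 CPM against 0.675, 0.0954, 0.497 and 0.565, did not pass the filter.

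The growth hormone axis split by gene. GHR, the growth hormone receptor, was at 78.7 and 54.9 CPM against 605, 371, 588 and 444 and 1184, 1859 and 1175 in WT, and IGF1, its main target, at 357 and 257 against 606, 554, 783 and 698. IGFBP1, IGFBP2 and IGF1R were apart and higher. IGFBP1, a binding protein of fasting and fetal life, was at 937 and 905 CPM against 6.61, 22.0, 5.72 and 53.6, though WT set 3 was also at 109 CPM. IGF1R, the receptor of IGF1, of which adult hepatocytes have little, was at 53.7 and 57.6 CPM against 2.19, 3.37, 3.12 and 3.97. The median of the 10 genes was 0.34 on CPM and turned to -0.19 on the hepatocyte scale.

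The list of gluconeogenesis and glycogen genes went both ways. Of 18 genes, 8 were apart and lower and 4 higher. PCK1, the committed step of gluconeogenesis, was at 1721 and 1586 CPM against 9.80, 33.4, 51.3 and 76.1, with 23.7, 101 and 569 in WT. FBP1 was at 1198 and 1339 CPM against 399, 288, 304 and 269, and G6PC, which releases glucose, at 359 and 317 against 77.1, 57.0, 71.9 and 215. PC, pyruvate carboxylase, completed the 4 higher members, at 401 and 768 CPM against 168, 364, 140.1 and 193. Among the lower members, GYS2, liver glycogen synthase, was at 17.2 and 14.96 CPM against 93.3, 71.3, 86.5 and 91.2. The glycogen-targeting phosphatase subunits PPP1R3C and PPP1R3B were at 5.07 and 3.14 and 7.28 and 9.09 CPM, against 59.5 to 107 and 79.1 to 209.7. GBE1 and UGP2 were also apart and lower.

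Amino acid breakdown showed no common direction. SDS, serine dehydratase, was at 1459 and 1852 CPM against 22.0, 12.2, 42.8 and 55.0 and 147, 117 and 122 in WT. It fell in FA against WT by 2.28 on the log2 scale (SE 0.42, edgeR adjusted p = 0.0449), so the TAL1-high and FA sets lay on opposite sides of WT. HAL, which starts histidine breakdown, and GPT2, an alanine transaminase, were also apart and higher. ACMSD, which diverts tryptophan carbon from NAD synthesis, was at 3.29 and 2.14 CPM against 139.9, 132, 151 and 62.0 and 66.8, 37.0 and 33.6 in WT, and it rose in FA against WT by 1.68 (SE 0.26, adjusted p = 0.0236). SHMT1 and HAAO were apart and lower, SHMT1 at 179.9 and 202 CPM against 637, 872, 713 and 529.6 and HAAO at 41.0 and 74.4 against 185, 216, 205 and 151. In the tyrosine pathway that ends with FAH, TAT, the first enzyme, was apart and higher, at 1568 and 1327 CPM against 449, 369, 476 and 456. HGD, homogentisate dioxygenase, was apart and lower, at 107 and 218 CPM against 393, 447, 421 and 358. HPD, which lies between them and is the target of nitisinone, was below all TAL1-low sets but within 2-fold, at 634 and 764 CPM against 1391, 1154, 1009 and 899. GSTZ1, the step before FAH, overlapped, at 144 and 309 CPM against 418, 348, 486 and 205.

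Urea and methionine genes were mixed. ASS1, argininosuccinate synthase, was at 2018 and 2708 CPM against 1190.2, 1176, 877 and 785, and GLUL, glutamine synthetase, at 305 and 502 against 135, 188, 105 and 101. OTC, ornithine transcarbamylase, was lower at 100.3 and 139.9 CPM against 512, 231, 474 and 311, as was NAGS, which makes the activator of the cycle, at 13.7 and 24.0 against 58.7, 84.9, 55.7 and 41.0. CTH, which makes cysteine, was at 1004 and 793 CPM against 101, 87.6, 190.4 and 155, and AHCY, which clears S-adenosylhomocysteine, at 2479 and 2347 against 966, 679.8, 789 and 619. MAT1A, the S-adenosylmethionine synthetase of mature liver, was lower, at 371 and 509.5 CPM against 1161, 1754, 1327 and 1158.

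Lipid genes differed by pathway. Of 21 cholesterol synthesis genes, 5 were apart and lower and none higher (median -0.73). MSMO1 was at 161 and 199 CPM against 768, 1192, 1278 and 365, TM7SF2 at 32.2 and 45.6 against 205, 260.5, 143 and 95.3, and INSIG1, the sterol sensor, at 455 and 763 against 1553, 1792, 1349.9 and 1659. In fat synthesis, DGAT2, which completes triglycerides, was at 30.5 and 76.8 CPM against 268, 202, 323 and 146, and GPAM, which starts them, at 47.2 and 52.96 against 159, 204, 286 and 125. FADS1, a desaturase of polyunsaturated fatty acids, went the other way, at 72.4 and 142 CPM against 24.4, 13.1, 15.8 and 19.2, as did SCD5, at 14.6 and 12.2 against 0.102, 0.239, 0.160 and 0.113. In fatty acid oxidation the peroxisomal ACAA1 was apart and lower, at 138 and 287 CPM against 834, 774, 697 and 495. The mitochondrial ACADM was lower too, while CPT2, ECI1 and ECI2 were higher. CPT2, which passes fatty acids into mitochondria, was at 62.7 and 93.2 CPM against 21.9, 35.1, 27.6 and 23.3. FGF21, a fasting hormone of liver, was at 4.67 and 1.67 CPM against 0.0764, 0.143, 0.0320 and 0. The median of the 24 oxidation genes was 0.44 on CPM and -0.13 on the hepatocyte scale.

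Secreted plasma proteins differed by list. Of 18 acute phase genes, 7 were apart and higher and none lower. ORM1, an acid glycoprotein, was at 5974 and 4582 CPM against 11.2, 915, 37.8 and 62.3, CP, ceruloplasmin, at 14185 and 7396 against 369, 3039, 1105 and 1948, and LBP, which presents endotoxin to macrophages, at 3448 and 3715 against 136, 1151, 277 and 1186. FA set 2 was the highest TAL1-low set for ORM1 and CP. It was also far above all others for SAA3, at 1324 CPM against 267 and 52.96 in the TAL1-high sets and 7.79, 11.8 and 4.91 in WT. SOCS3, the feedback inhibitor of interleukin-6 signaling, was at 62.7 and 97.5 CPM against 5.27, 29.3, 9.55 and 16.1. FGA, of fibrinogen, was at 27922 and 22258 CPM against 4210.5, 11255, 5998 and 12635, with FGB and FGG alike. CRP, HP and HPX overlapped.

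No complement gene was apart and higher. Of 19, 4 were apart and lower, 13 on the hepatocyte scale, with a median of -0.78. C5, the source of the anaphylatoxin, was at 476 and 291 CPM against 1056, 1571, 1315 and 2032, and MBL2, mannose-binding lectin, at 329 and 273 against 850.3, 875, 869.8 and 931. Of 18 coagulation genes 3 were apart and lower, namely KLKB1, PROC and F7. KLKB1, plasma prekallikrein, was at 155 and 52.3 CPM against 312, 322, 222 and 344.

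The carriers and apolipoproteins held large differences in both directions. APOA1, of high-density lipoprotein, was at 2909 and 3181 CPM, 56.3, 113, 60.0 and 71.5 in the TAL1-low sets and 28.7, 33.5 and 45.1 in WT, a mean ratio of 40.5. SERPINA7, which carries thyroid hormone, was at 690.1 and 448 CPM against 7.17, 33.8, 9.40 and 8.96, and APOA4 at 3739.6 and 4599 against 1043, 739, 773 and 777. TTR, the other thyroid hormone carrier, and RBP4, the retinol carrier, were apart and lower, RBP4 at 2604 and 3364 CPM against 7791, 9282, 5679 and 5770.4. In all, 5 of 21 were apart and higher and 5 lower.

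Interferon response genes were lower. Of 25 that passed the filter, 17 were apart and lower and 1 higher, with a median of -1.37, and 22 were lower on the hepatocyte scale. IFIT2, which blocks translation of viral RNA, was at 0.342 and 1.19 CPM against 47.9, 35.4, 87.8 and 27.6 and 63.0, 47.9 and 49.4 in WT. OAS2, a sensor of double-stranded RNA, was at 0.839 and 2.11 CPM against 45.5, 53.5, 78.5 and 30.6, and USP18, which restrains the pathway, at 0.257 and 1.24 against 15.03, 7.75, 24.4 and 8.36. MX1, an antiviral GTPase, was at 9.04 and 21.3 CPM against 96.9, 25.7, 134 and 24.5, and FK set 2 and FK set 3 lay close together for it. OASL was at 1.37 and 2.95 CPM against 12.1, 8.37, 18.4 and 11.9. IRF1 was the member apart and higher, at 20.9 and 36.4 CPM against 10.2, 9.54, 9.32 and 8.99. Members that were not apart, such as RSAD2 and IFIT3, lay near the TAL1-low sets in FK set 2.

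B2M, the light chain of class I antigen-presenting molecules, was at 371 and 201 CPM in the TAL1-high sets, 1080.2, 691, 873 and 916 in the TAL1-low sets and 1003, 700.4 and 1016 in WT. NLRC5, the activator of class I genes, was apart and lower as well, at 0.616 and 1.75 CPM against 2.43, 2.94, 3.89 and 2.70. The loading gene TAPBP was apart and higher, at 18.9 and 30.8 CPM against 10.2, 11.4, 8.73 and 10.2. TAP1, TAP2 and ERAP1 overlapped or differed less than 2-fold. Of 6 class II genes only CD80 was apart, and CD74 overlapped, at 85.5 and 133 CPM against 100.1, 103, 68.7 and 89.8.

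Resident macrophage genes were partly higher. Of 21 Kupffer cell genes, 8 were apart and higher and none lower, but 6 and 1 with TMM factors and 5 and 3 on the hepatocyte scale. CD163, the receptor that clears hemoglobin bound to haptoglobin, was at 33.2 and 34.6 CPM against 0.280, 0.366, 1.20 and 1.24, with 0.197, 0.315 and 0.119 in WT. MARCO, a scavenger receptor, was at 126 and 115 CPM against 24.9, 18.3, 32.0 and 22.7, HMOX1, which degrades heme, at 87.9 and 96.2 against 25.8, 18.1, 11.2 and 30.8, and VSIG4, a complement receptor, at 116 and 75.5 against 25.8, 32.8, 25.3 and 47.1. The Kupffer cell genes CD5L and MRC1 were level, CD5L at 133 and 82.3 CPM against 102, 84.5, 82.1 and 157. The list as a whole summed to 1344 and 1256 CPM against 679 to 951 and 1016 to 1328 in WT, so WT and TAL1-high sets overlapped.

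Lymphocyte genes were sparse. Of 18 measured T and NK cell genes, 7 passed the filter, and the sum of the 18 was 10.8 and 17.0 CPM against 13.4, 9.70, 18.8 and 8.27. NKG7, a granule protein of cytotoxic cells, was at 3.42 and 7.04 CPM against 0.153, 0.0477, 0.288 and 0.0646, while the T cell genes CD3D, CD3E and LCK were not above the TAL1-low sets. JCHAIN, which joins secreted antibodies, was at 1.97 and 1.92 CPM against 30.4, 24.9, 28.5 and 26.4 and 82.6, 76.4 and 84.7 in WT, and it fell in FA against WT by 1.499 on the log2 scale (SE 0.17, edgeR adjusted p = 0.00877). PIGR, the receptor that carries such antibodies into bile, was at 14.5 and 19.8 CPM against 8358, 12208, 10379 and 8995 and 30896, 20488 and 18279 in WT. IGLL1, part of the receptor of precursor B cells, was at 0.582 and 1.505 CPM, with 0 counts in the 7 other sets.

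Stress programs were mixed. Of 22 p53 targets, 3 were apart and higher and 3 lower, and their median of 0.20 turned to -0.27 on the hepatocyte scale. BTG2 was at 59.0 and 112 CPM against 11.97, 11.8, 11.1 and 10.8. SESN1, a regulator of growth signaling, was at 10.3 and 15.01 CPM against 47.0, 23.9, 41.5 and 33.3. CDKN1A, the main cell cycle inhibitor of the list, overlapped, at 42.5 and 75.2 CPM against 45.1, 26.4, 32.6 and 33.0, and it rose in FA against WT by 1.49 (SE 0.25, edgeR adjusted p = 0.0336). Of 16 NRF2 targets, 6 were apart and lower, among them GCLC, the rate-limiting enzyme of glutathione synthesis, at 81.0 and 130.2 CPM against 334, 305, 392.1 and 281. GSR, which regenerates glutathione, was at 47.7 and 56.7 CPM against 188, 131, 174 and 132. NQO1 was lower in both TAL1-high sets but not apart by the rule, at 45.2 and 63.2 CPM against 97.5, 124, 92.9 and 64.3, and it rose in FA against WT by 1.80 (SE 0.24, adjusted p = 0.0126). HMOX1 and SLC7A11 of the same list were apart and higher. Of 18 unfolded protein response genes, 4 were apart and higher and 1 lower, near the share over all genes. HYOU1, a chaperone of the endoplasmic reticulum, was at 167 and 161 CPM against 32.2, 73.3, 54.7 and 49.8, and XBP1, the lower member, at 341 and 208 against 444, 842, 426 and 911. The median of the 18 genes was 0.46 on CPM and -0.07 on the hepatocyte scale.

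Stromal genes were partly higher on CPM. Of 23 stellate cell and matrix genes, 12 were apart and higher and 2 lower, against 8 and 2 with TMM factors and 5 and 3 on the hepatocyte scale. HGF, the hepatocyte growth factor of stellate cells, was at 103 and 64.7 CPM against 3.98, 8.65, 4.45 and 17.0. COL1A1, of fibrillar collagen, was at 77.4 and 136 CPM against 23.5, 27.8, 11.97 and 19.04, with 36.8, 40.1 and 38.2 in WT. LRAT, which stores retinol in quiescent stellate cells, was lower, at 5.72 and 3.24 CPM against 17.4, 14.998, 13.6 and 15.4. Of 21 endothelial genes 15 were not apart, and PLVAP, of fenestrated capillaries, was at 20.7 and 52.8 CPM against 6.87, 6.60, 4.17 and 8.80. Of the bile duct genes, PKHD1, the fibrocystin gene, was at 4.86 and 6.57 CPM in the TAL1-high sets, 39.6, 67.3, 56.0 and 121 in the TAL1-low sets and 6.92, 10.2 and 8.56 in WT. It rose in FA against WT by 2.69 (SE 0.24, edgeR adjusted p = 0.00338), and FK sets 1 and 2 lay below all WT sets. The duct keratin KRT19 was at 7.26 and 11.6 CPM against 5.35, 3.45, 3.04 and 1.07, and KRT7 and SOX9 overlapped.

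Genes tied to position in the liver lobule went both ways. TBX3, a target of Wnt signaling near the central vein, was at 203 and 212 CPM against 9765, 4263, 6009 and 4105, and the lipid droplet enzyme HSD17B13 at 14.7 and 8.202 against 1219, 739, 1084 and 877. GLUL, which marks the cells around the central vein, was higher, as were the periportal PCK1, SDS and HAL. AXIN2, ZNRF3 and RHBG overlapped.

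Ribosomal protein genes were higher on CPM, with a list median of 0.96, or 0.67 with TMM factors and 0.39 on the hepatocyte scale. Of 22 ribosomal protein genes 8 were apart and higher on CPM, 2 with TMM factors and none on the hepatocyte scale. Of 21 respiratory chain genes 1 was apart, with a median of 0.45 on CPM and -0.12 on the hepatocyte scale. None of 17 proteasome genes was apart in either direction.

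**Figure D4:**
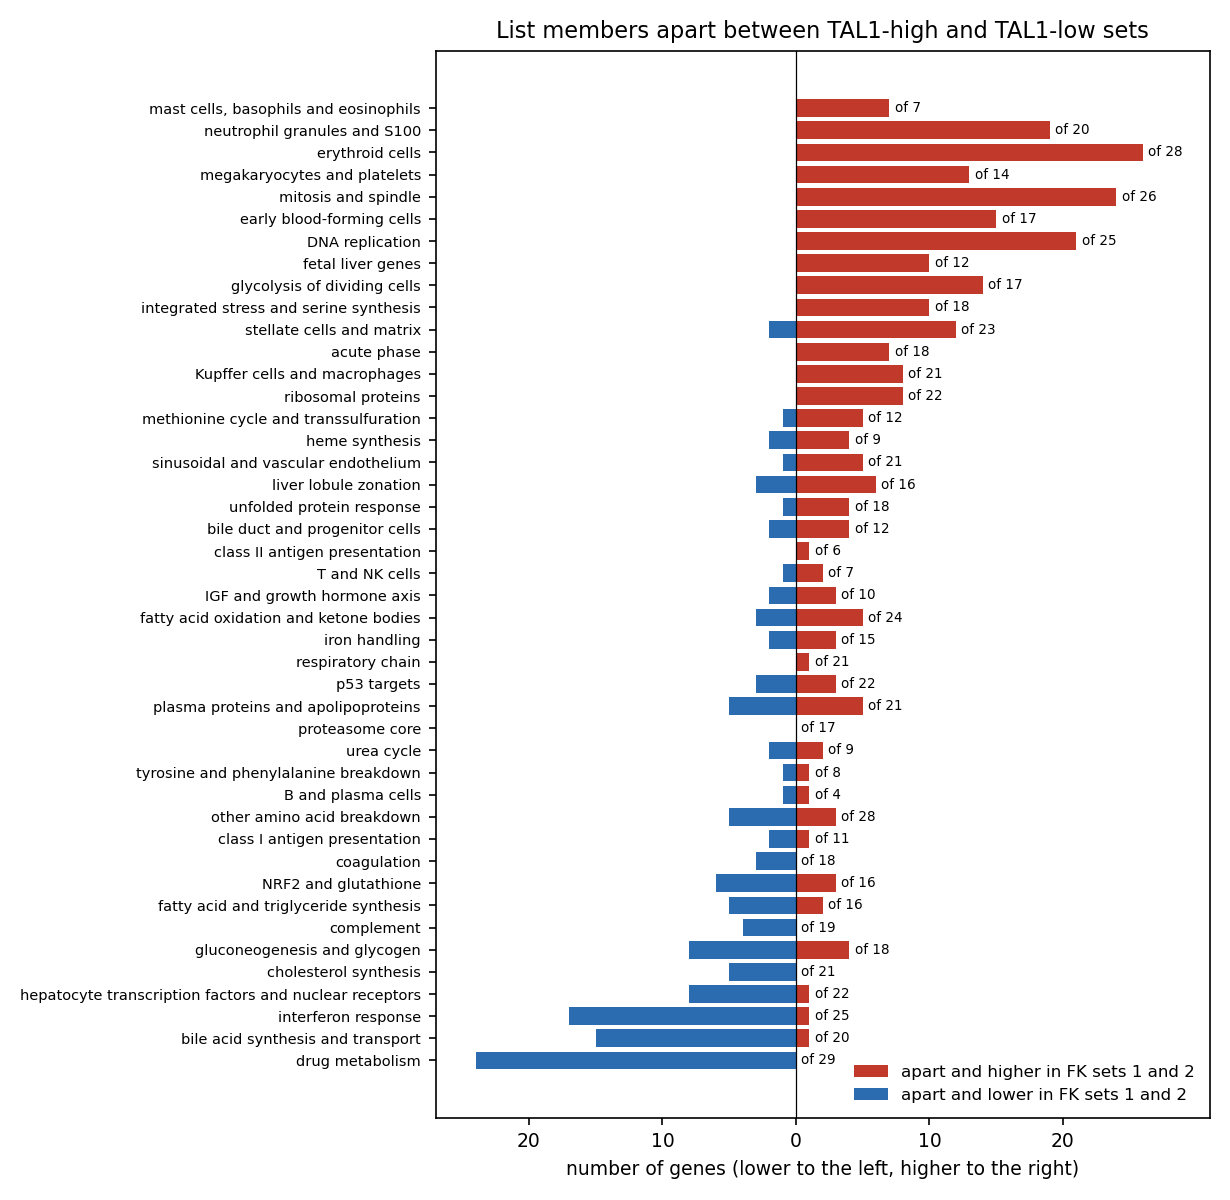
Number of members of each gene list that stood apart and higher (red, to the right) or lower (blue, to the left) in FK sets 1 and 2, with the number that passed the filter in print. The drug metabolism list has 24 lower of 29 and the erythroid list 26 higher of 28; members that passed only through the high sets had to differ.

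Over all genes with a symbol, the 10 largest ratios on the higher side mixed red cell, granulocyte and other genes. ALOX15, the lipoxygenase of maturing reticulocytes and eosinophils, was at 200.1 and 1779.9 CPM against 0.700, 0.668, 0.0160 and 0.0161, with 0.623, 0.236 and 0.475 in WT. The gene listed only as MCP-1, with no product named, was at 177 and 612 CPM against 4.02, 0.525, 0.128 and 0.291. CHI3L2, a chitinase-like protein named through RefSeq, was at 218 and 239.6 CPM against 0.509, 0.684, 1.15 and 0.307. RLN1, relaxin, was at 172 and 79.8 CPM against 0.204, 0, 0.240 and 0.0161, with 0 counts in each WT set. SLC4A1, AHSP, ANK1, LCN2 and HEMGN were also among the 10. On the lower side stood CYP2C5, CYP2C14, CYP2C4, CYP2C16, CYP2C2, UGT2B16 and PIGR, given above or of the same families. The others were PGER2, at 3.20 and 6.40 CPM against 5011, 1791, 3561 and 2616, SULT3A1, a sulfotransferase, at 12.3 and 6.25 against 2053, 1241, 2601 and 1858, and the alcohol dehydrogenase ADH2-2, at 20.3 and 3.76 against 1879, 965, 1743 and 852.

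Among the genes most like TAL1 over the 6 sets were GFI1B, ANK1, BTG2 and RHAG, with Pearson's r of log2 CPM (1 CPM added) of 0.9998, 0.9998, 0.9997 and 0.9997. With 4 low sets and 2 high ones such values are a description that many genes share. RHAG, part of the ammonium channel complex of the red cell membrane, was at 16.4 and 56.0 CPM, with 2 counts in all over the TAL1-low sets.

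FK sets 1 and 2 were not alike in how much blood RNA they held. Comparing their 4 libraries each, 1158 of 12613 genes were at least 2-fold higher in FK set 2 with no overlap of libraries and 311 in FK set 1. The libraries of a set may come from 1 animal, so these counts describe 2 sets. Of the 2689 genes apart and higher against the TAL1-low sets, 492 were on the side of FK set 2 and 45 on that of FK set 1. Of the 1228 apart and lower, 117 were on the side of FK set 2 and 46 on that of FK set 1. These counts are on CPM, and the TMM factor was 1.23 in FK set 2 against 1.08 in FK set 1. The median log2 difference, FK set 2 minus FK set 1, was 1.77 over the erythroid genes, 1.25 over heme synthesis and 1.19 over mitosis, against 0.22 over all genes. It was 0.75 over neutrophil, 0.13 over megakaryocyte and -0.85 over mast cell, basophil and eosinophil genes. TAL1 itself was 3.10 times as high in FK set 2, ALOX15 8.90 times and LTF, the lactoferrin of neutrophil secondary granules, 14.1 times (4.78 and 67.2 CPM). KIT and MYB of the progenitors were 1.501 and 0.978 times as high.

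Lists of liver genes ranged on the same measure from -0.27 for complement and -0.26 for acute phase genes to 0.62 for fatty acid and triglyceride and 0.74 for cholesterol synthesis. The drug metabolism median differed by 0.36 and that of bile acid genes by 0.37. Single liver genes differed in both directions. SLC27A5, which activates bile acids, was at 22.4 and 173 CPM in FK sets 1 and 2, and ASPG, an asparaginase, at 4.45 and 31.8. ADH2-2 was at 20.3 and 3.76 CPM and CPB2, a fibrinolysis inhibitor, at 1131 and 249. CLEC7A, the beta-glucan receptor of macrophages, was at 34.1 and 5.31 CPM, and UCP1, the uncoupling protein of brown fat, at 48.8 and 8.58 with 16.8, 2.66 and 4.12 in the FA sets. These last genes were higher in FK set 1.

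**Figure D5:**
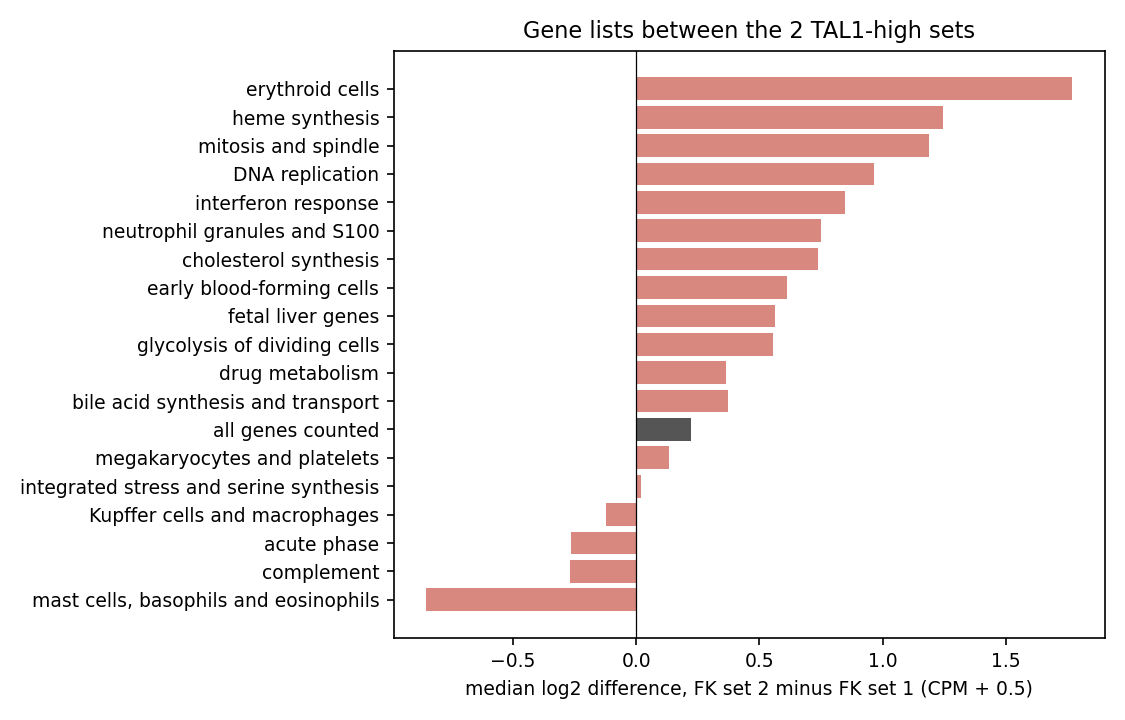
Median log2 difference between FK set 2 and FK set 1 for gene lists (bars) and for all genes counted (dark bar). The erythroid list is highest in favor of FK set 2, at 1.77, and the mast cell, basophil and eosinophil list lies on the side of FK set 1, at -0.85.

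FA and WT were compared to see how livers low in both FAH and TAL1 differed from WT. An edgeR fit of the 3 FA and 3 WT sets alone called 235 of 14379 genes, 139 higher (0.967%) and 96 lower (0.668%) in FA. FAH fell by 3.37 on the log2 scale (SE of 0.20, adjusted p = 0.00132). The number of calls was 76, 129 and 123 without WT sets 1, 2 and 3, 96 and 79 without FA sets 1 and 3 and 341 without FA set 2. In a fit of all 9 sets, as used for FK against FA, it was 25 of 14939 genes. None of the 14 early blood, 17 neutrophil or 26 mitosis genes tested was called in either direction, and of 21 erythroid genes only TFRC was. Of 24 DNA replication genes 2 were called higher and none lower, with a median log2 difference of 0.60. Their list summed to 148, 148 and 176 CPM in FA against 99.9, 101 and 144 in WT. Of the 29 drug metabolism genes 1 was called higher and 1 lower, of 25 interferon genes none, and of 21 bile acid genes CYP7A1 alone. The median log2 difference, FA minus WT, was 0.14 over drug metabolism and -0.07 over interferon genes, against 0.00 over all genes. Of the genes called in FA, some stood with FA in the TAL1-high sets and others, such as SDS and PKHD1 above, did not. KMO, the kynurenine hydroxylase, fell in FA by 5.26 (SE 0.71, adjusted p = 0.0137) and was at 0.308, 0.188 and 0.678 CPM in FK sets 1, 2 and 3 and 53.9 to 89.6 in WT. LGALS3, a galectin of macrophages and ducts, fell in FA by 3.28 (SE 0.25, adjusted p = 0.00296) and was at 3.85, 6.41 and 14.7 CPM in the FK sets and 58.5 to 61.7 in WT. SCG3, a granin, rose by 5.42 (SE 0.36, adjusted p = 0.00132) and was at 30.6, 22.6 and 35.6 CPM in the FK sets.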

How the data were processed

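RNA was sequenced from 36 rabbit liver libraries. The deposited values are estimated counts per gene, whole numbers as given, in 1 table. Salmon 0.14.1 is named in the submitters' processing notes without its role, while build, annotation, strand setting and rounding go unstated in these sources. This table holds 23394 genes, of which 8019 have only a LOC identifier; 765 of these were paired with a symbol through RefSeq gene names (assembly mOryCun1.1). No value column was left without a sample (0).

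The 4 libraries of each numbered set were summed and divided by the set total (CPM). Libraries held 11.7 to 22.5 M counts. For the 6 FA and FK sets, genes with at least 1 CPM in 2 sets were kept. Log2 ratios compared the mean CPM of the 2 classes, with 0.5 added to each mean, so the higher set weighs more. Differences from WT and between FK sets 1 and 2 used log2(CPM + 0.5) of each set. FK was tested against FA (9 set sums) and FA against WT (6 set sums) with edgeR 4.0.16 (quasi-likelihood, TMM, adjusted p under 0.05). The labels do not tie sets to animals, so p-values measure the spread between sets, which may be technical. DESeq2 1.42.0, limma 3.58.1, R 4.3.3, Python 3.11.15, numpy 2.4.6, pandas 2.3.3 and matplotlib 3.10.9 were also used. On simulated counts, the FK against FA test recovered 6% of 2-fold and 73% of 8-fold changes (14725 genes), and the FA against WT test 14% and 100% (14151 genes). The simulation changed only genes above a minimum mean count and drew the sets of a group around a common mean. FK itself holds TAL1-high and TAL1-low sets, so recovery in the real data may differ.

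Members and the 45 gene lists (944 entries, 830 found, 26 through RefSeq symbols) were chosen with earlier results of these data known. Per list, up to 5 members with at least 10 CPM on the higher side and the largest ratios were named, with members against the majority. Also named were the 4 markers, FAH, the 10 largest ratios each way at 20 CPM or more, and the 5 genes most like TAL1. Other named genes were chosen after their values were seen. Some genes that the rule names are not reported here. Estimated counts may divide reads of similar or overlapping genes, such as CYP2C, UGT2B and S100A. Alternatives were other scalings, filters, ratios, tests, a replicate block and leaving out each set.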

Additional observations from a re-analysis of the deposited data

Results flagged for a closer look

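In groups of 4 values, a value was singled out when its gap to the next, divided by the whole range, was above Dixon's 95% critical value. Of 74 groups examined 5 had such a value, and chance gives about 1 in 20. The median of the tyrosine and phenylalanine breakdown list over the 4 TAL1-low sets had a ratio of 0.836, with FK set 3 at -0.76 log2 units from WT and the FA sets at -0.18, -0.27 and -0.18. The median of the other amino acid breakdown list had a ratio of 0.963, again with FK set 3 apart, at -0.08 against 0.21, 0.22 and 0.21 in the FA sets. Among the 4 libraries of FK set 2, TAL1 had a ratio of 0.86, with 85.9 CPM in 1 library and 125, 131 and 132 in the others. Among those of FA set 2, NFE2 had a ratio of 0.859, with 1.69 CPM in 1 library and 0.905, 0.928 and 1.02 in the others. Among those of FA set 1, MYB had a ratio of 0.853, with 0.325 CPM in 1 library and 0.048, 0.0596 and 0.0888 in the others.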

How the results depend on the processing

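The FK against FA count of 0 was 1778 with DESeq2 and between 0 and 5324 when 1 set was left out, the last without FK set 3. That fit leaves only the TAL1-high sets in FK, a choice by the readout, so its count is a description. The FK against FA count was also 0 in the edgeR fits with RLE factors, without a filter, at 1 CPM and of FA and FK alone. The FA against WT count of 235 was 1135 with DESeq2, 25 in a fit of all 9 set sums and between 76 and 341 when 1 set was left out. With the set number as a replicate block it was 134, and the FK against FA count was 0. Same-numbered FA and FK sets deviated together at r = 0.0147, 0.101 and 0.131, against -0.138 to 0.0456 for differently numbered ones. For WT and FA the same-numbered values were -0.133, -0.147 and -0.0107, against -0.129 to 0.214. For WT and FK they were -0.0978, -0.0143 and -0.0280, against -0.0522 to 0.122. For FA and FK the values 0.101 and 0.131 lay above all differently numbered ones, while 0.0147 lay within their range. In the pairs with WT no same-numbered value lay above that range, and the numbers were not taken to pair the sets. The counts of genes apart and higher or lower (2689 and 1228) were 1493 and 2383 on the hepatocyte scale, 4034 and 1869 without a filter, and 1245 and 549 at a ratio of 4. When 1 set was left out they ran from 1759 to 2916 and from 1218 to 1459. Of 450 list medians under alternatives, 23 in 14 lists had the other sign, 11 of them on the hepatocyte scale, and 17 of the 23 were in lists whose set medians overlapped between the classes. The other 6, all on the hepatocyte scale, were the IGF axis (-0.187), fatty acid oxidation (-0.127), p53 targets (-0.269), unfolded protein response (-0.075), respiratory chain (-0.12) and the hepatocyte reference itself (-0.082). Fewer genes or samples enter under the filters, the ratio of 4 and the left-out sets; for DESeq2 and the scale the cause was not tested. With 2 TAL1-high sets and 0 tested calls, single differences rest on 2 sets.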
